A study of Mus musculus with 6 samples.

Results

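The integrin and laminin genes were described here in cultured primary Sertoli cells of the mouse, somatic cells that line the seminiferous tubule and support germ cells. They were taken as every gene whose symbol marks an integrin alpha subunit, an integrin beta subunit or a laminin alpha, beta or gamma chain, and 37 of the 29275 genes in each deposited file met that rule. These were 18 integrin alpha, 8 integrin beta and 11 laminin genes. The 6 libraries comprised 3 with a label of conditional Arhgef15 deletion (cKO; the gene encodes a guanine nucleotide exchange factor) and 3 with a wild type label (WT). Per the labels, the deletion was made in Sertoli cells, WT cells were untreated, and all cultures grew in medium with serum and EGF. The sources used here do not give the Cre line, the deleted exons or the age of the mice. The comparison asked which transcripts differ when Arhgef15 is deleted in these cells.

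Integrins are cell surface receptors made of 1 alpha and 1 beta subunit. The alpha subunit largely sets whether the pair binds fibronectin, collagen, laminin or a ligand on another cell. In most pairs the beta subunit ties the receptor to the actin cytoskeleton inside the cell. Laminins are cross-shaped proteins of the basement membrane, each built from 1 alpha, 1 beta and 1 gamma chain. In the testis, Sertoli cells and peritubular myoid cells lay down the basement membrane of the tubule, on which Sertoli cells rest. Integrin and laminin chains are also known from the junctions between Sertoli cells and spermatids.

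The libraries held 16790000 to 20320000 fragments, as read from the step between neighbouring values. Values are FPKM, which are scaled to gene length, so levels can be set side by side between genes. The level of the targeted gene was low in every library and did not settle the labels. Arhgef15 was listed at 0.501, 0.322 and 0.338 FPKM in cKO replicates 1, 2 and 3, against 0.123, 0.0237 and 0.349 FPKM in WT replicates 1, 2 and 3, and groups are therefore named by their labels. The groups overlapped, and the difference was 0.26 (log2, limma without the filter on low values, adjusted p = 0.903). WT replicate 3 stood apart from the other WT libraries. The 22 Sertoli cell markers, of which 20 passed the filter on low values, summed to 742.7 to 1048.4 FPKM in cKO libraries, against 401.2, 385.5 and 1012.3 FPKM in WT replicates 1, 2 and 3. Summed macrophage and myeloid markers were at 211.7 to 363.9 FPKM in cKO libraries, against 1468.1, 1187.8 and 331.9 FPKM in WT replicates 1, 2 and 3. In RNA from a mixed culture, fewer cells of a type and less RNA per cell cannot be told apart.

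A few subunits made up most of each class. Itga5, the alpha subunit of the classical fibronectin receptor, held 65.1% to 69.5% of the summed integrin alpha FPKM in cKO libraries and 57.4% to 76.1% in WT libraries. With Itgav, the alpha subunit of the vitronectin receptors, and Itga9, an alpha subunit with tenascin and osteopontin among its ligands, the share was 87.8% to 92.6% in cKO and 86.3% to 92.3% in WT libraries. Among beta subunits Itgb1, the partner of the largest number of alpha subunits, held 71.3% to 83.0% in cKO and 67.6% to 78.3% in WT libraries. Lama4 was the leading laminin alpha chain, with 54.5% to 65.3% of the class in cKO and 55.5% to 69.7% in WT libraries. Lamc1, the gamma chain of most laminins, held 67.4% to 83.2% in cKO and 65.7% to 87.7% in WT libraries. The shares of the leading subunits overlapped between the genotypes in all of these classes. The beta chains were split between Lamb1, at 51.2% to 55.6% in cKO and 48.1% to 56.8% in WT libraries, and Lamb2, which made up nearly all the rest.

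**Figure D1:**
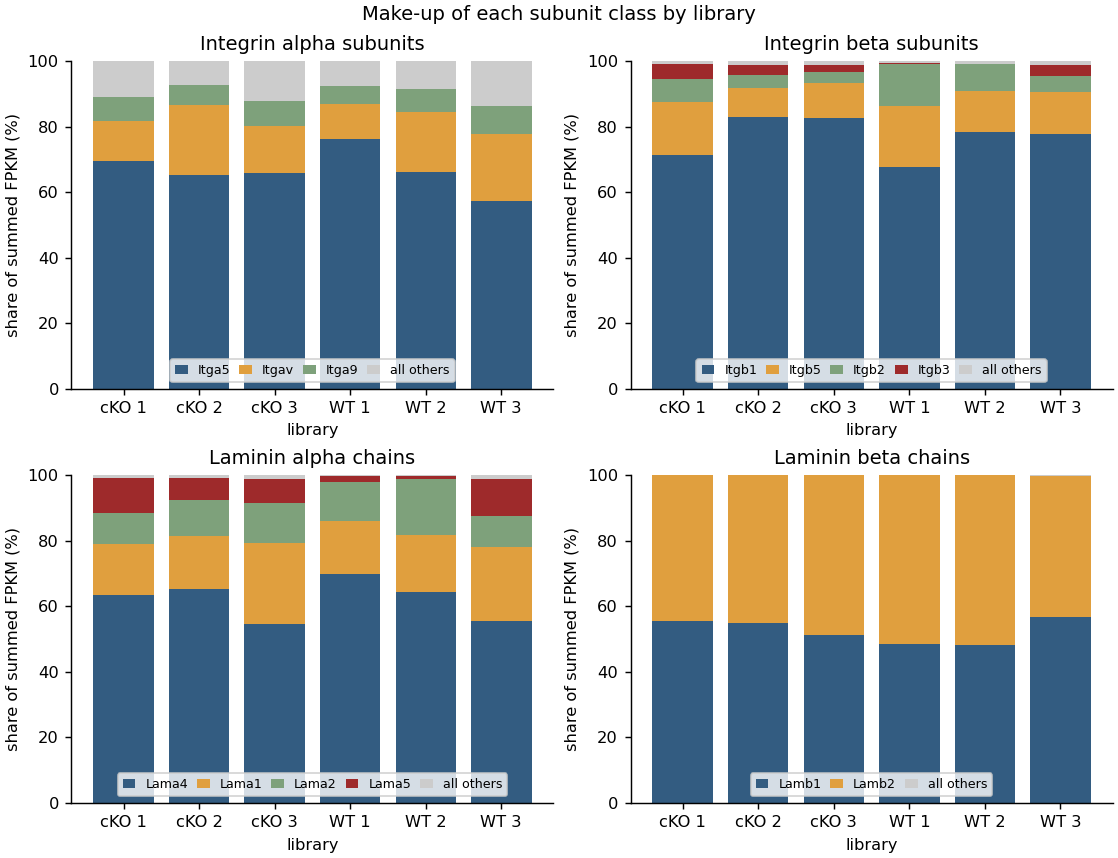
Share of the summed FPKM (%) that each named gene held in its subunit class, by library, with the 3 cKO libraries on the left of each panel. Itga5, Itgb1 and Lama4 were the largest component of their class in all 6 libraries and Lamb1 and Lamb2 had similar shares, while Itgb3 (1.92% to 4.48% in cKO, 0.204% to 3.60% in WT) and Lama5 were thin in WT replicates 1 and 2.

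Of the 37 genes, 24 reached at least 1 FPKM in at least 3 libraries and were tested, and 13 did not. The 13 below the filter never exceeded 1.72 FPKM. None of the 24 passed the threshold (limma, Benjamini-Hochberg adjusted p under 0.05), with adjusted p from 0.660 to 0.991, where 0.0163% of all 12284 tested genes passed. At an unadjusted p under 0.05 there were 3, of which Itga7 was higher (3.87% of all genes tested were higher at that level) and Itgb2 and Itgam were lower (2.94% of all). All 3 cKO values lay above all 3 WT values for Itga5, Itga7 and Lamc1, which is 12.5% of the tested members, beside 6.28% of all tested genes. For 0 of the 24 did they lie below, beside 5.01% of all. The median difference on the log2(FPKM + 1) scale, cKO minus WT, was 0.41 over the 24 tested members, beside 0.08 over all tested genes, and without the filter 0.06 over all 37, beside 0.02 over all genes. For those 3 genes p was 0.1 by exact permutation of the libraries (two-sided), the smallest value that 3 against 3 allows.

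**Figure D2:**
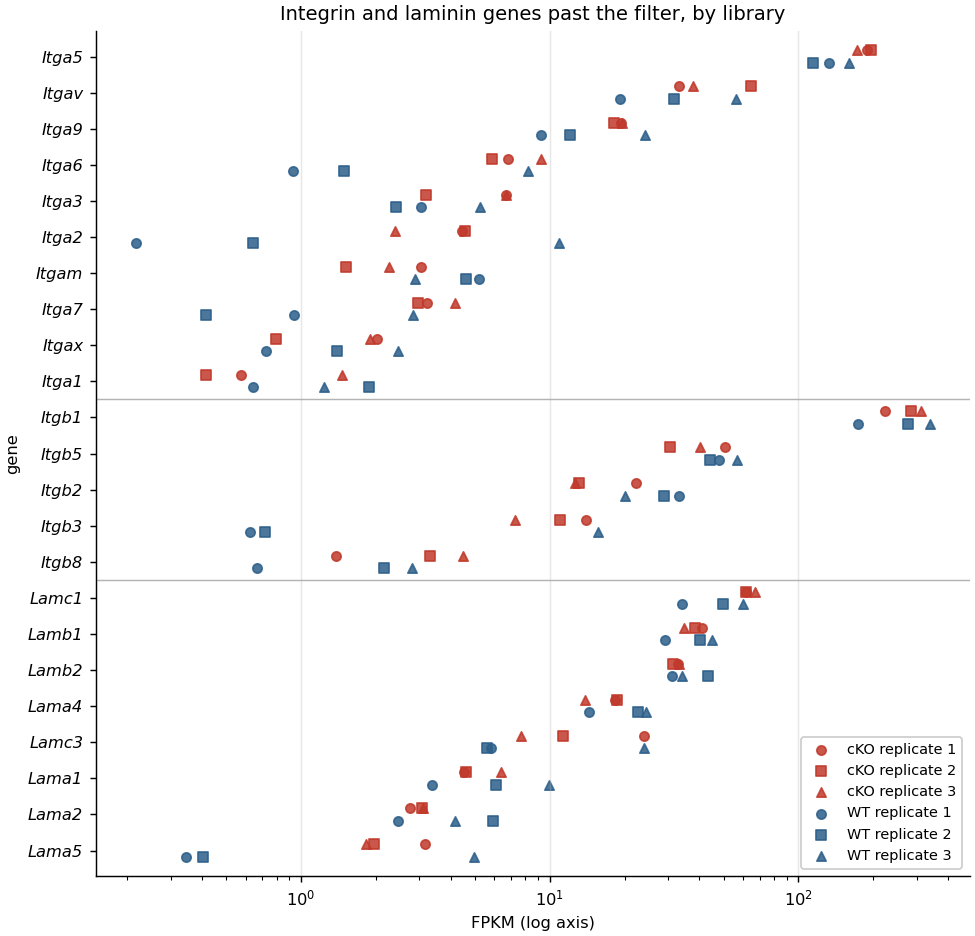
FPKM (log axis) of 23 of the 24 integrin and laminin genes past the filter, 1 point per library, with the cKO libraries above the WT libraries of each gene and grey lines between integrin alpha, integrin beta and laminin genes. WT replicate 3, the blue triangle, often lay at the right of its gene, and WT replicates 1 and 2 lay far to the left for Itga2, Itga6, Itga7, Itgb3 and Lama5.

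WT replicate 3 decided several of these values. It was the highest of the 6 libraries in 11 of the 24 tested members, or 45.8%, beside 25.0% of all tested genes. Without it, 5 members passed, all higher in libraries labelled cKO: Itgb3, Itga6, Itga2, Itga7 and Lama5. That is 20.8% of the tested members, beside 2.47% of all tested genes that passed as higher in that fit, and 0 members passed as lower, beside 1.42% of all. The filter was set on all 6 libraries. Of the WT libraries, only WT replicate 3 reached 1 FPKM for Itgb3, Itga2, Itga7 and Lama5. In the fit without it, these genes thus passed the filter through the cKO libraries alone, which favours calls as higher. With any other single library left out, 0 members passed. The shares are therefore given as description only. Against WT replicates 1 and 2 only, the cKO values lay entirely above in 12 members, beside 25.9% of all genes, and entirely below in 2, Itgam and Itgb2, beside 15.5% of all.

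**Figure D3:**
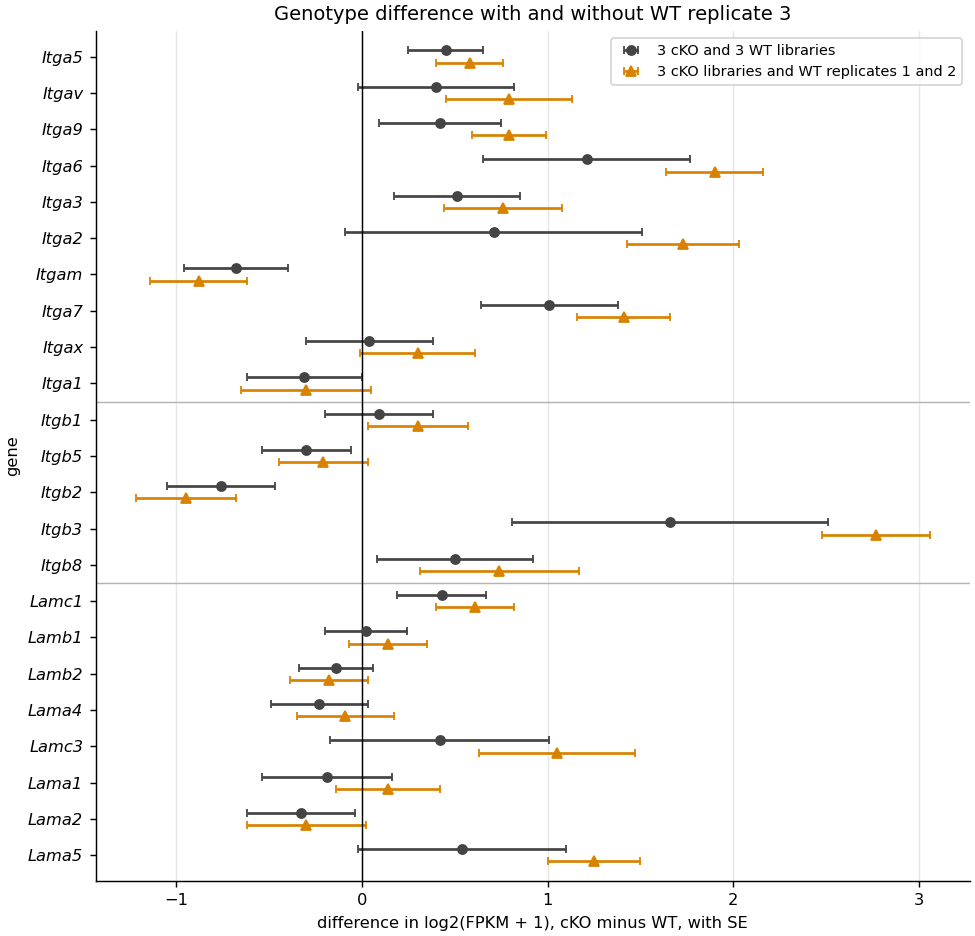
Difference in log2(FPKM + 1), cKO minus WT, with the SE from limma as bars, of 23 of the 24 tested genes, for all 6 libraries (grey circles) and without WT replicate 3 (orange triangles). Itgb3 had the widest gap between the fits, 1.66 with all 6 libraries and 2.77 without WT replicate 3, and leaving that library out moved Itgam and Itgb2 further below 0.

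The results are ordered by ligand, beginning with the receptors of fibronectin and vitronectin. Itga5 was listed at 188.5, 195.1 and 172.2 FPKM in cKO replicates 1, 2 and 3, against 133.1, 114.7 and 160.3 FPKM in WT replicates 1, 2 and 3. The groups did not overlap, with WT replicate 3 nearest to the cKO range. The difference was 0.45 (log2, SE 0.20) and did not pass (limma, adjusted p = 0.736). Its partner Itgb1 was listed at 222.5, 284.1 and 310.4 FPKM in cKO libraries, against 173.5, 276.4 and 337.4 FPKM in WT libraries. WT replicate 3 was the highest and WT replicate 1 the lowest library for Itgb1, so both cKO extremes lay inside the WT range. Itgb1 had a difference of 0.09 (log2, SE 0.29, limma, adjusted p = 0.963), and its direction turned without WT replicate 1 (-0.18) or cKO replicate 3 (-0.01).

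Itgav was listed at 33.2, 64.4 and 37.8 FPKM in cKO libraries, against 19.1, 31.5 and 56.3 FPKM in WT libraries. The groups overlapped, and the difference of 0.40 (log2, SE 0.42) did not pass (limma, adjusted p = 0.888). It was 0.04 without WT replicate 1, 0.12 without cKO replicate 2 and 0.79 without WT replicate 3. Of the beta subunits that pair with Itgav, Itgb5, known as a vitronectin receptor subunit, had 40.5 ± 10.1 FPKM in cKO and 49.5 ± 6.26 FPKM in WT libraries (SD, n = 3 each). Itgb8, whose pair with Itgav activates latent TGF-beta, had 3.07 ± 1.57 FPKM in cKO and 1.87 ± 1.09 FPKM in WT libraries. For both, the means differed by less than the SD of the cKO libraries. Itgb6, an epithelial partner, was listed at 0 in cKO replicate 2 and in WT replicates 1 and 2, and at no more than 0.0900 FPKM elsewhere.

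Itgb3, the partner that forms the vitronectin receptor of bone, vessels and platelets, had the largest difference of the tested members on the log2 scale. It was listed at 14.0, 11 and 7.23 FPKM in cKO replicates 1, 2 and 3, against 0.624, 0.721 and 15.7 FPKM in WT replicates 1, 2 and 3. WT replicates 1 and 2 were low and the other 4 libraries high, with WT replicate 3 the highest of all. The difference was 1.66 (log2, SE 0.85, limma, adjusted p = 0.757) with all libraries, and 2.77 (SE 0.29, adjusted p = 0.0106) without WT replicate 3. In the latter fit Itgb3 passed the filter through the cKO libraries alone, which favours a call as higher, so it is description only. The share of Itgb3 in the summed beta subunits was 1.92% to 4.48% in cKO libraries. It was 0.243% or less in WT replicates 1 and 2 and 3.60% in WT replicate 3. The other partner of Itgb3, the platelet subunit Itga2b, showed no such split, at 0.492, 0.360 and 0.438 FPKM in cKO libraries and 0.411, 0.235 and 0.460 FPKM in WT libraries. Those values rested on 33 to 52 fragments in cKO and 25 to 51 fragments in WT libraries. Itga8, a receptor subunit for nephronectin, differed widely inside the cKO group, with 34, 2 and 126 fragments in cKO replicates 1, 2 and 3, against 6, 30 and 53 in WT replicates 1, 2 and 3.

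The laminin receptor subunits Itga3, Itga6 and Itga7 all had higher means in libraries labelled cKO, and none passed. Itga6, known in Sertoli cells from the junction with spermatids, was listed at 6.83, 5.88 and 9.21 FPKM in cKO replicates 1, 2 and 3, against 0.933, 1.49 and 8.22 FPKM in WT replicates 1, 2 and 3. WT replicate 3 lay inside the cKO range, and both other WT libraries lay below it. The difference was 1.21 (log2, SE 0.56, limma, adjusted p = 0.748), and 1.90 (SE 0.26, adjusted p = 0.0169) without WT replicate 3. The latter fit leaves out the WT library that lay inside the cKO range, so it is description only.

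Itga7, the laminin receptor subunit best known from muscle, was listed at 3.21, 2.96 and 4.15 FPKM in cKO libraries, against 0.936, 0.418 and 2.82 FPKM in WT libraries. The groups did not overlap, though cKO replicate 2 and WT replicate 3 were close. The difference was 1.01 (log2, SE 0.37, limma, adjusted p = 0.660), and 1.41 (SE 0.25, adjusted p = 0.0331) without WT replicate 3. In the latter fit Itga7 passed the filter through the cKO libraries alone, so it is description only. Itga3, a receptor subunit of epithelial basement membranes, was listed at 6.68, 3.18 and 6.70 FPKM in cKO libraries and at 3.04, 2.41 and 5.25 FPKM in WT libraries. Its groups overlapped, and its difference was 0.51 (log2, SE 0.34, limma, adjusted p = 0.822). Together these 3 subunits took 4.01% to 7.67% of the summed alpha FPKM in cKO libraries and 2.49% to 5.84% in WT libraries. Itgb4, the hemidesmosome subunit that pairs with Itga6, lay below the filter at 0.647, 0.178 and 0.227 FPKM in cKO libraries, against 0.251, 0.153 and 0.898 FPKM in WT libraries.

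Among the collagen receptor subunits, Itga2 had the widest range of any tested member, 50.1-fold between its highest and lowest library. It was listed at 4.43, 4.57 and 2.40 FPKM in cKO replicates 1, 2 and 3, against 0.217, 0.640 and 10.9 FPKM in WT replicates 1, 2 and 3. WT replicate 3 was far the highest library, and WT replicates 1 and 2 the lowest. The linear means were nearly the same, 3.80 ± 1.21 FPKM in cKO and 3.91 ± 6.03 FPKM in WT libraries (SD, n = 3 each), while the difference on the log2 scale was 0.71 (SE 0.80, limma, adjusted p = 0.896). Without WT replicate 3 it was 1.73 (SE 0.30, adjusted p = 0.0314). In that fit Itga2 passed the filter through the cKO libraries alone, so the value is description only. Itga1, the collagen receptor subunit of stromal and smooth muscle cells, was listed at 0.577, 0.416 and 1.47 FPKM in cKO and at 0.645, 1.88 and 1.24 FPKM in WT libraries, with overlapping groups and a difference of -0.31 (log2, SE 0.31, limma, adjusted p = 0.884). Itga10 and Itga11, collagen receptor subunits of cartilage and fibroblasts, lay below the filter at 0.115 to 0.975 FPKM in cKO and 0.109 to 1.72 FPKM in WT libraries. Itga9 was at 19.4, 18.2 and 19.5 FPKM in cKO libraries, against 9.24, 12.1 and 24.2 FPKM in WT libraries. The cKO values of Itga9 lay close together inside the wider WT range (0.42, log2, SE 0.33, limma, adjusted p = 0.853), and the difference was 0.14 without WT replicate 1 and 0.79 without WT replicate 3. Itga4, which binds fibronectin and VCAM1, was below the filter at 0.122 to 0.328 FPKM in cKO and 0.118 to 0.250 FPKM in WT libraries.

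Markers of several cell types moved with Itgb3, Itga2, Itga6 and Lama5. Summed Sertoli markers were at 924.8, 742.7 and 1048.4 FPKM in cKO replicates 1, 2 and 3, against 401.2, 385.5 and 1012.3 FPKM in WT replicates 1, 2 and 3. All 22 of these markers were in the files, and Fshr was at 0 in WT replicates 1 and 2. Of 20 tested, 16 had a higher mean in cKO libraries, as had 7343 of all 12284 tested genes. The 6 rete testis and epithelial markers summed to 12.9, 7.88 and 6.18 FPKM in cKO libraries, against 1.82, 1.13 and 22.8 FPKM in WT libraries. The 12 endothelial markers summed to 110.2, 66.2 and 63.8 FPKM in cKO libraries, against 37.8, 32.4 and 67.0 FPKM in WT libraries. All 3 sums were lowest in WT replicates 1 and 2. Platelets and megakaryocytes are the cells in which Itgb3 pairs with Itga2b. The sum of their 4 markers in the files was highest there instead, at 236.9, 105.1 and 137.9 FPKM in cKO libraries, against 696.7, 568.4 and 241.4 FPKM in WT libraries. It was mostly Pf4, at 659.1 and 524.0 FPKM in WT replicates 1 and 2. The sum of the 8 peritubular myoid markers was highest there too, at 725.5, 844.2 and 1299.3 FPKM in cKO libraries, against 3094.9, 2425.6 and 536.7 FPKM in WT libraries. It was mostly Acta2, at 2852.7 and 2240.0 FPKM in WT replicates 1 and 2. Of 7 myoid markers tested, 3 had higher and 4 lower means in cKO libraries. Myh11 was at 4.91 and 7.21 FPKM in WT replicates 1 and 2, against 30.0 FPKM in cKO replicate 3. Without WT replicate 3, 8 of the 20 tested Sertoli markers passed as higher and 1, Inhbb, as lower (limma), beside 2.47% and 1.42% of all tested genes. The sum of these same markers was among the values that set WT replicate 3 apart. Calls as higher were thus favoured in advance, and the counts are description only. Among the markers called higher, Gdnf (0.827 and 0.879 FPKM) and Rhox5 (0.279 and 0.0336 FPKM) were below 1 FPKM in WT replicates 1 and 2. The part of these cells in the integrin and laminin values was not tested.

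Of the leukocyte integrins, Itgb2 and Itgam had lower means in libraries labelled cKO, and neither passed. Itgb2, the beta subunit shared by the leukocyte integrins, was listed at 22.2, 13.1 and 12.7 FPKM in cKO replicates 1, 2 and 3, against 33.0, 28.9 and 20.1 FPKM in WT replicates 1, 2 and 3. Only cKO replicate 1 reached into the WT range, above WT replicate 3. The difference was -0.76 (log2, SE 0.29, limma, adjusted p = 0.682). Itgam, its alpha partner on macrophages and neutrophils, was listed at 3.03, 1.52 and 2.26 FPKM in cKO libraries, against 5.18, 4.63 and 2.89 FPKM in WT libraries. Here too cKO replicate 1 lay above WT replicate 3, with the rest apart. The difference of Itgam was -0.68 (log2, SE 0.28, limma, adjusted p = 0.727). Without WT replicate 3, Itgb2 and Itgam differed by -0.95 and -0.88 and still did not pass (limma, adjusted p = 0.107 and 0.114).

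The other partners of Itgb2 varied. Itgax, known from dendritic cells and macrophages, was listed at 2.02, 0.794 and 1.90 FPKM in cKO libraries and at 0.722, 1.40 and 2.47 FPKM in WT libraries. Its groups overlapped, and its difference of 0.04 (log2, SE 0.34, limma, adjusted p = 0.982) turned to -0.05 with quantile normalization. Itgad, below the filter, rested on 55, 29 and 73 fragments in cKO replicates 1, 2 and 3, against 0, 4 and 35 fragments in WT replicates 1, 2 and 3. Per length and depth, cKO replicate 2 and WT replicate 3 were almost level for Itgad, at 0.383 and 0.382 FPKM. Itgal, the lymphocyte partner of Itgb2, was below the filter at 0.306, 0.562 and 0.439 FPKM in cKO libraries, against 0.585, 0.656 and 0.449 FPKM in WT libraries. As for Itgb2 and Itgam, the cKO values of Itgal lay below WT replicates 1 and 2, and 1 of them lay above WT replicate 3. Itgae and Itgb7, which pair on mucosal T cells, lay at 0.0652 to 0.745 FPKM in cKO and 0.128 to 1.12 FPKM in WT libraries.

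Macrophage and myeloid markers, from which integrins were left out, moved with Itgb2 and Itgam. All 20 were in the files, with Cx3cr1 at 0 in at least 1 library. Of the 17 tested, 16 had a lower mean in libraries labelled cKO, as had 4941 of all 12284 tested genes. The median difference was -1.32 (log2), and 0 passed (limma). Without WT replicate 3, 5 of the 17 passed as lower and 0 as higher (limma), beside 1.42% and 2.47% of all tested genes. The sum of these same markers was among the values that set WT replicate 3 apart. Calls as lower were thus favoured in advance, and the counts are description only. The summed level of the 20 markers was 363.9, 211.7 and 285.6 FPKM in cKO replicates 1, 2 and 3. It was 1468.1, 1187.8 and 331.9 FPKM in WT replicates 1, 2 and 3. The gap between WT replicates 1 and 2 and the other libraries was thus wider for this sum than for Itgb2 or Itgam. Lyz2 was its largest part, at 647.8 and 576.9 FPKM in WT replicates 1 and 2. Single markers varied, and Cd14 and Ptprc showed no such gap. Cd14 was at 18.0 and 13.3 FPKM in WT replicates 1 and 2, against 47.1 and 48.4 FPKM in cKO replicates 1 and 2. The 11 lymphocyte markers in the files summed to at most 1.90 FPKM in cKO and 2.44 FPKM in WT libraries, and Cd3d, Cd3e and Cd3g were at 0 in at least 1 library each. The part of these cells in the leukocyte integrin values was not tested.

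**Figure D4:**
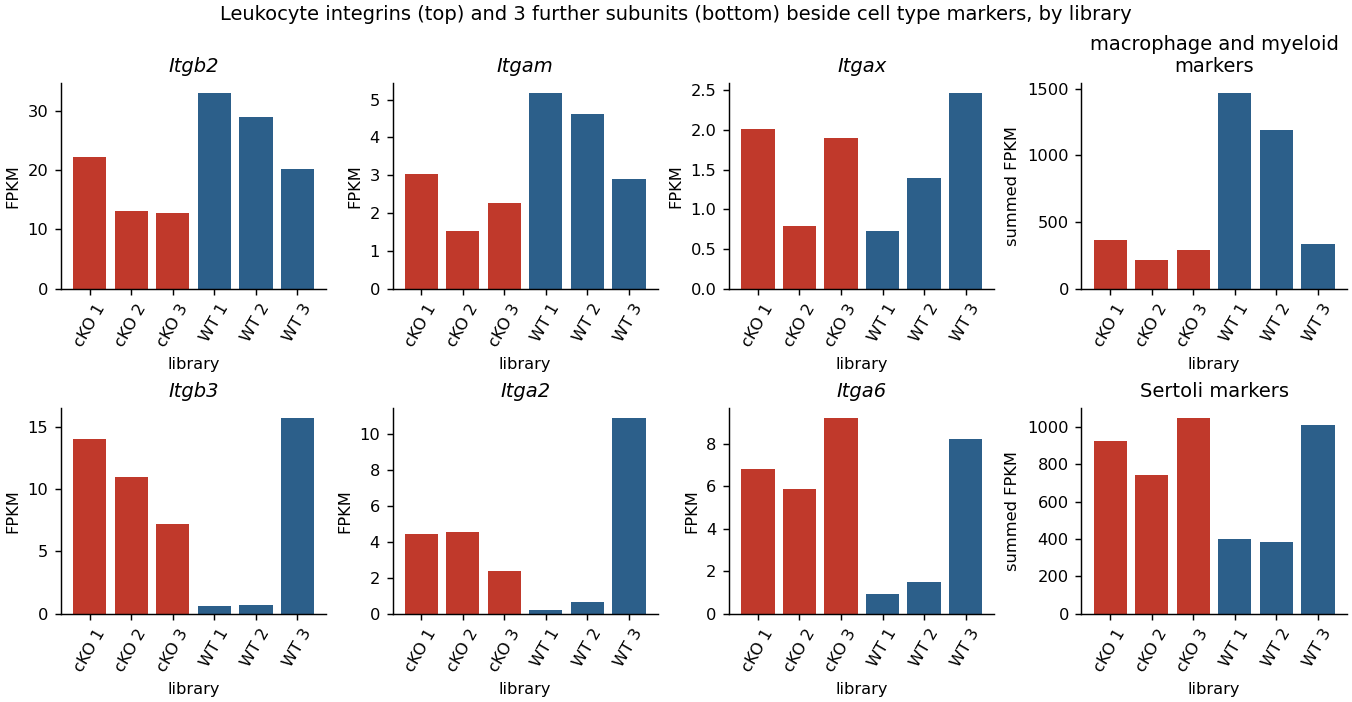
Per-library bars of the leukocyte integrins Itgb2, Itgam and Itgax (FPKM) beside the summed FPKM of 20 macrophage and myeloid markers (top), and of Itgb3, Itga2 and Itga6 beside the summed FPKM of 22 Sertoli markers (bottom), cKO libraries in red and WT libraries in blue. WT replicate 3 sat near the cKO libraries for both marker sums, at 331.9 and 1012.3 FPKM.

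Of the laminin alpha chains, Lama4, the chain of vessels and mesenchymal cells, was listed at 18.4, 18.6 and 13.9 FPKM in cKO replicates 1, 2 and 3, against 14.4, 22.6 and 24.4 FPKM in WT replicates 1, 2 and 3. Lama1, an early basement membrane chain that persists in the seminiferous tubule, was listed at 4.54, 4.62 and 6.36 FPKM in cKO libraries and at 3.38, 6.09 and 9.99 FPKM in WT libraries. Both overlapped between the groups, with differences of -0.23 (SE 0.26) and -0.19 (SE 0.35) on the log2 scale, and Lama1 turned to 0.14 without WT replicate 3. Lama2, the chain of muscle and peripheral nerve, had 2.98 ± 0.203 FPKM in cKO and 4.18 ± 1.73 FPKM in WT libraries (SD, n = 3 each). Its cKO values were tightly grouped and lay inside the WT range of 2.46 to 5.92 FPKM (limma, adjusted p = 0.875).

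Lama5, the main alpha chain of adult epithelial and endothelial basement membranes, followed the order seen for Itgb3 and Itga2. It was listed at 3.15, 1.97 and 1.83 FPKM in cKO replicates 1, 2 and 3, against 0.347, 0.405 and 4.96 FPKM in WT replicates 1, 2 and 3. WT replicate 3 was the highest library and the other WT libraries the lowest. The difference was 0.54 (log2, SE 0.56, limma, adjusted p = 0.889), and 1.25 (SE 0.25, adjusted p = 0.0470) without WT replicate 3. In the latter fit Lama5 passed the filter through the cKO libraries alone, so it is description only. Lama3, an epithelial chain, lay below the filter, with 42, 43 and 65 fragments in cKO replicates 1, 2 and 3, against 9, 17 and 99 in WT replicates 1, 2 and 3.

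Lamb1 and Lamb2 spanned the narrowest ranges of the tested members. Lamb1, the beta chain of most early laminins, was listed at 41.0, 38.4 and 34.8 FPKM in cKO libraries and at 29.1, 40.4 and 45.0 FPKM in WT libraries. Lamb2, the chain of the synapse and the kidney filter, was listed at 32.7, 31.4 and 33.1 FPKM in cKO libraries and at 31.0, 43.5 and 34.0 FPKM in WT libraries. The libraries spanned 1.54-fold for Lamb1 and 1.40-fold for Lamb2, and the cKO values lay inside the WT range for both. Lamb1 differed by 0.02 (log2, SE 0.22) and by -0.05 with median-ratio scaling, and Lamb2 by -0.14 (SE 0.20), with limma adjusted p of 0.991 and 0.908. Lamb3, the epithelial chain of hemidesmosomes, was almost silent, with 2 to 8 fragments in cKO and 1 to 23 fragments in WT libraries.

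Lamc1 was listed at 61.5, 61.5 and 67.1 FPKM in cKO replicates 1, 2 and 3, against 34.2, 49.8 and 59.7 FPKM in WT replicates 1, 2 and 3. All cKO values lay above all WT values, WT replicate 3 by a small margin, and the difference of 0.43 (log2, SE 0.24) did not pass (limma, adjusted p = 0.779) and was 0.21 without WT replicate 1. Lamc3, a gamma chain known in the testis from the junction between Sertoli cells and spermatids, was listed at 24.0, 11.3 and 7.68 FPKM in cKO libraries, against 5.83, 5.60 and 23.9 FPKM in WT libraries. For Lamc3, cKO replicate 1 and WT replicate 3 were high and level, and both other WT libraries were the lowest. Its difference was 0.42 (log2, SE 0.59, limma, adjusted p = 0.909), and it turned to -0.01 without cKO replicate 1. The 10 germ cell markers summed to 391.6, 144.1 and 127.8 FPKM in cKO replicates 1, 2 and 3, against 145.7, 74.6 and 359.6 FPKM in WT replicates 1, 2 and 3, so their 2 highest libraries were those of Lamc3. Uchl1 was the largest part of the sum, at 137.7, 94.0 and 110.7 FPKM in cKO libraries, against 40.5, 24.9 and 173.9 FPKM in WT libraries. Single markers varied. Dazl was highest in cKO replicate 1 and WT replicate 3, at 17.2 and 27.4 FPKM. Tnp2 was at 34.7 FPKM in WT replicate 1, against 14.6 FPKM in WT replicate 3. WT replicate 1 came next for the sum, but was next to lowest for Lamc3. The part of germ cells in the Lamc3 values was not tested.

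Promoter sequences are shown for 3 members that stood for different patterns, Itga5 with groups apart, Itga2 with the widest range and Itgam lower in libraries labelled cKO. Each line gives the 250 bases before the annotated start, 5′ to 3′ on the strand of the gene, from RefSeq on GRCm38.p6, and capitals mark the motifs found. The windows are chr15:103366792-103367041 on the minus strand for Itga5, chr13:114932101-114932350 on the minus strand for Itga2 and chr7:128062390-128062639 on the plus strand for Itgam.
Itga5: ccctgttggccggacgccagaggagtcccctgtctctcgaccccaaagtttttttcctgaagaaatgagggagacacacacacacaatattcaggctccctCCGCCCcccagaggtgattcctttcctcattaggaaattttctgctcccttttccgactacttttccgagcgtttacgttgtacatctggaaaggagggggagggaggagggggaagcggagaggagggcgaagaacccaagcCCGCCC
Itga2: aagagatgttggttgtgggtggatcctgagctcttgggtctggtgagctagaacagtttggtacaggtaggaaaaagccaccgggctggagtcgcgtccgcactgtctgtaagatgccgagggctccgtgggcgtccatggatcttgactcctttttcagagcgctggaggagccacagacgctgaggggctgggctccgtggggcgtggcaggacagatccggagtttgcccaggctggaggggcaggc
Itgam: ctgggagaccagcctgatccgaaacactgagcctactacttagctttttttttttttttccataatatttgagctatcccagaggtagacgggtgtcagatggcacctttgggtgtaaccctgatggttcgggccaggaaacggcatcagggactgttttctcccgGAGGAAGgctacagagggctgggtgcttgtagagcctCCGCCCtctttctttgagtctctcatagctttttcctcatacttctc

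Both strands were searched for 4 short motifs that do not overlap in these windows. The GC box, bound by factors of the Sp family, was searched as GGGCGG. The TATA box, which places the start of transcription in some promoters, was searched as TATAAA. The AP-1 element, bound by Fos and Jun proteins, was searched as TGANTCA. The element of PU.1, a factor of the myeloid lineage, was searched as GAGGAAG. Itga5 held 2 GC boxes, Itgam held 1 GC box and 1 PU.1 element, and the window of Itga2 held none of the 4 motifs. Of the 32851 windows of this length in the table, 32.7% held a GC box, 12.4% a TATA box, 6.75% an AP-1 element and 10.6% a PU.1 element. Among the 23 members with a window, 8 held a GC box, 0 a TATA box, 1 an AP-1 element and 7 a PU.1 element. Those with a PU.1 element were Itga11, Itga2b, Itgam, Itgav, Itgb6, Lama2 and Lamb3, and Itgax held the AP-1 element. The other 14 members had no entry in the table. The member counts are per gene, with 2 windows each for Itga3, Itgb6 and Lamb3, while the percentages are per window. The median GC content was 58.4% in members and 52.4% in all windows. A match describes the letters only.

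Genes that act with integrins and laminins were followed in 5 lists, and 0 of their members passed (limma, adjusted p under 0.05). Their counts of direction are to be read beside all 12284 tested genes. Of those, 7343 had a higher and 4941 a lower mean in cKO libraries. Of 35 genes of the integrin adhesion complex, which joins integrin tails to actin, 33 were tested, with 17 higher and 16 lower means in cKO libraries and a median difference of 0.00 (log2), beside 0.08 for all tested genes. Its 3 highest genes had similar group means. Flna, an actin crosslinker, had 271.6 ± 17.9 FPKM in cKO and 304.4 ± 63.5 FPKM in WT libraries (SD, n = 3 each), and the alpha-actinin genes Actn1 and Actn4 had 234.3 ± 17.1 and 141.9 ± 12.3 FPKM in cKO, against 233.1 ± 19.3 and 148.9 ± 28.8 FPKM in WT libraries. Both Flna and Actn4 were highest in WT replicates 1 and 2 and lowest in WT replicate 3.

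Of 20 other basement membrane genes 17 were tested, 13 with higher and 4 with lower means in libraries labelled cKO and a median of 0.16 (log2). Hspg2, the gene of the heparan sulfate proteoglycan perlecan, was listed at 136.7, 139.4 and 104.1 FPKM in cKO libraries, against 71.7, 97.9 and 105.3 FPKM in WT libraries, so that cKO replicate 3 and WT replicate 3 were level (limma, adjusted p = 0.755). The collagen IV genes Col4a1 and Col4a2 had 247.6 ± 36.8 and 174.1 ± 27.5 FPKM in cKO, against 200.6 ± 18.8 and 172.0 ± 7.52 FPKM in WT libraries. All 11 other laminin receptors and integrin-binding tetraspanins were tested, with 6 higher and 5 lower means and a median of 0.15 (log2). Sdc4, a syndecan that acts with integrins at focal adhesions, was listed at 331.9, 602.0 and 468.3 FPKM in cKO libraries, against 225.7, 202.4 and 283.1 FPKM in WT libraries. Its groups did not overlap, and the difference of 0.95 (log2, SE 0.28) did not pass (limma, adjusted p = 0.583). The tetraspanins Cd63 and Cd151 had 183.6 ± 19.6 and 108.5 ± 19.7 FPKM in cKO, against 165.5 ± 11.1 and 130.6 ± 39.7 FPKM in WT libraries.

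Of 23 integrin ligand genes in the files 18 were tested, 13 with higher and 5 with lower means and a median of 0.18 (log2). The 3 highest, Spp1 (osteopontin), Ccn2 and Ccn1, had 1118.2 ± 47.9, 909.7 ± 262.5 and 792.4 ± 79.4 FPKM in cKO, against 954.3 ± 382.9, 788.3 ± 239.5 and 725.4 ± 194.0 FPKM in WT libraries. Of 4 hemidesmosome genes in the files 2 were tested, Plec and Dst, both with higher means. The linker Plec had 31.5 ± 3.52 FPKM in cKO and 26.4 ± 4.20 FPKM in WT libraries, and the linker Dst had 4.94 ± 1.43 FPKM in cKO and 2.99 ± 2.44 FPKM in WT libraries (SD, n = 3 each). Col17a1, a hemidesmosome collagen, lay below the filter at 0.154 to 0.331 FPKM in cKO and 0.0355 to 0.188 FPKM in WT libraries. Without WT replicate 3, 5 of the 33 tested genes of the adhesion complex passed, with Pxn, Src and Tns3 higher and Tgfb1i1 and Rsu1 lower, beside 2.47% of all tested genes higher and 1.42% lower in that fit. In the same fit Smoc2, Agrn and Col18a1 of the basement membrane list and the ligands Tnc and F11r were higher, and the laminin receptor Bcam was lower. These 11 genes were chosen after their values were seen. Tnc, the gene of the integrin ligand tenascin C, was listed at 64.8, 59.0 and 72.7 FPKM in cKO replicates 1, 2 and 3, against 7.05, 7.26 and 51.6 FPKM in WT replicates 1, 2 and 3, with WT replicate 3 below the cKO range.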

How the data were processed

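RNA from 3 cultures labelled Arhgef15 cKO and 3 labelled WT was sequenced. The submitters' processing notes name FastQC, the aligner HISAT2 2.1.0 and the build mm8. The sources used here give no counter, annotation or strand, so overlapping antisense genes may share fragments. The authors deposited 1 FPKM value per gene and library. The unit was read from the values: in single-exon genes, value times exonic length (GENCODE M21) fell on 1 step per library, which gave the depth and, for members with at most 200 fragments, the fragment number (within 0.05 of a whole number). Of 29275 identifiers, 28932 matched a symbol.

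Values were tested as log2(FPKM + 1), so differences of low genes are understated, with limma 3.58.1 (R 4.3.3, eBayes with trend, genotype as the only term, two-sided, Benjamini-Hochberg over the 12284 genes that reached 1 FPKM in 3 or more libraries). The fit was also run on simulated data, with independent noise of the same spread in all 6 libraries. That setting holds no library like WT replicate 3, so it says nothing about the split among WT libraries. The titles number biological replicates without naming animals, so p-values cover only the spread among these 6 libraries. Named genes were all members and the 3 highest genes by mean FPKM of each of the 5 pathway lists. The result of 1 tested member is counted in the totals and not reported here. The members and lists were chosen with earlier results of these data known. Alternatives were no filter, a filter of 5 FPKM, median-ratio or quantile scaling, a threshold of 0.1, other pseudocounts (0.1 or 5), leaving out each library, and a block for the replicate number. Python 3.11.15 made tables and figures.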

Additional observations from a re-analysis of the deposited data

How the results depend on the processing

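Of 304 single-gene differences recomputed under the alternatives, 288 kept their direction and side of the threshold, 11 turned direction, and 5 passed the threshold, all 5 without WT replicate 3. The 11 belonged to 5 genes. Itgax was at -0.05 with quantile normalization and at -0.20 to 0.30 with a library left out, and Lamb1 at -0.05 with median-ratio scaling and -0.16 to 0.14 with a library left out. With a library left out, Itgb1 spanned -0.18 to 0.30, Lama1 -0.53 to 0.14 and Lamc3 -0.01 to 1.05. The members past the threshold numbered 0 in all other settings run and 5 without WT replicate 3, a range of 0 to 5. Those with groups apart numbered 3 to 14 with a library left out (6 without WT replicate 1, 14 without WT replicate 3 and 7 without cKO replicate 1), where fewer libraries also make separation easier. Their median difference was 0.06 to 0.59 with a library left out. Over all genes, 2 passed with all libraries, 0 to 478 with a library left out (478 without WT replicate 3, 4 without WT replicate 1), 0 without the filter and 0 with the replicate block. Deviations of same-numbered libraries correlated at 0.14, 0.03 and -0.21, so the numbers were not taken as pairs, and the block changed no call of a member.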
